A study of Mus musculus with 8 samples.

Results

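The genes described here are the Trim family of mouse ubiquitin ligases, read through the anti-IRF5 CUT&Tag peaks that lie near them. A gene was taken as a member when its symbol, as the authors' annotation gives it for the nearest gene of a peak, began with Trim and a digit. This rule found 42 genes among the 20824 named genes of the 6 deposited peak lists. All 42 were found by symbol in the RefSeq table of GRCm38.p6, where they are protein coding. That table holds 69 such Trim genes, and no peak of any list had 1 of the other 27 as its nearest gene. A name is attached only to the nearest gene of a peak, so every member had at least 1 peak by construction.

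CUT&Tag directs a transposase with an antibody to the DNA beside a chromatin protein and sequences the fragments released there. Macrophages grown from the bone marrow of wild-type (wt) mice had received PBS (control) or CpG, unmethylated DNA that is sensed by TLR9, and each condition had 2 anti-IRF5 libraries. How much CpG was given, and for how long, is not stated in the labels. The labels do not say whether the 2 libraries of a condition came from separate animals or cultures, so p-values measure only the spread between these samples, which may be technical.

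Most TRIM proteins carry a RING domain that transfers ubiquitin, followed by B-boxes and a coiled coil, and most end in a domain that binds the substrate. Many act in innate immunity, where they switch RNA and DNA sensors and their signalling complexes on or off, and several are themselves induced by interferon. IRF5 is an interferon regulatory factor that acts below MyD88 in the Toll-like receptor pathway. The factors of that family bind repeats of GAAA, and some bind a joined Ets and IRF site together with PU.1.

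The lists of control 1, control 2, CpG 1 and CpG 2 held 29226, 37315, 13553 and 25851 peaks, in the order used for every run of 4 values below. The files give no read totals, so depth is unknown, and CpG 1 had the fewest peaks. Per the names of the lists, both control libraries were called against the same IgG library of the control, and each CpG library against IgG from CpG-treated cells. The background library and the treatment therefore cannot be told apart. In a bulk library, fewer cells with IRF5 at a site and less IRF5 there per cell cannot be told apart either. Of 8 macrophage marker genes 7 were named, and 7, 7, 4 and 7 of these had a Promoter call, the authors' class for a peak whose summit lies up to about 2 kb upstream of a gene's start. Among peaks whose summit lay in the 2 kb before the nearest gene's start, 97.5% to 97.9% carried this class. Named markers of B cells had no Promoter call in any library (0 of 2 genes), nor did those of erythroid (0 of 2) or stromal cells (0 of 1). Those of T and NK cells had 1 call of 2 genes and those of neutrophils 1 of 4, both in control 2 alone. Of 2 named dendritic cell markers, Xcr1 was called in all 4 libraries and Flt3 in none. Of all named genes 24.1%, 28.6%, 10.4% and 22.2% had a Promoter call, against 100%, 100%, 57.1% and 100% of the named macrophage markers. At such shares, the absence of a call in 1 or 2 genes says little about a cell type. Markers nearest to no peak had no name and were not counted.

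Promoter sequences are shown for the members on which the results turn, because they place the peaks against interferon-type motifs. They are from the RefSeq table of GRCm38.p6 and are written 5′ to 3′ on the gene's strand. The coordinates of the peak lists belong to a build that the sources used here do not give. Peaks and sequences were therefore compared only by their distance from the gene's start, and only where the gene's length in the files and in the table differed by at most 30 bp, a limit chosen after the lengths were seen. Capitals mark either of the motifs searched on both strands. The interferon-stimulated response element (ISRE) core was GAAA, any 2 bases and GAAA. The Ets-IRF composite was GGAA, any 2 bases and GAAA. The 2 motifs can overlap. The following are the 250 bases before the start of Trim25 (chr11:88999153-88999402, plus strand), of Trim12c (chr7:104353350-104353599, minus strand) and of Trim30a (chr7:104465194-104465443, minus strand).
Trim25: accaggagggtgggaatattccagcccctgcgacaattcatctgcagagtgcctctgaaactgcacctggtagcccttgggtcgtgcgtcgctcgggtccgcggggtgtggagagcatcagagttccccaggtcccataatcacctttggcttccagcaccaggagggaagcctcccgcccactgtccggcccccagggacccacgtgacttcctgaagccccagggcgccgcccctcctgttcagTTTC
Trim12c: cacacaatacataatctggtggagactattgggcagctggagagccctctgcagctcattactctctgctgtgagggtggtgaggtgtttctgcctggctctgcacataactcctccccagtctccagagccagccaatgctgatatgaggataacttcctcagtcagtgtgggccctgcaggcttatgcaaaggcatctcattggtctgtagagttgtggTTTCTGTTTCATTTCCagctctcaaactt
Trim30a: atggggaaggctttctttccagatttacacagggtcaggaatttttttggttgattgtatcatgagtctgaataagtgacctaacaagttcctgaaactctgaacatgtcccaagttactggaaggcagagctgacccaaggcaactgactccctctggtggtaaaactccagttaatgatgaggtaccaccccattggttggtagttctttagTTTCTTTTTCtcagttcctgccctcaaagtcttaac

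Stretches of 30 bases around the motifs are shown for 6 members, to compare the copies within the chromosome 7 cluster with each other and with genes elsewhere. They lie on the minus strand at chr7:104353356-104353385 (Trim12c), chr7:104288133-104288162 (Trim5), chr7:104465210-104465239 (Trim30a), chr7:104507871-104507900 (Trim30d) and chr7:102565447-102565476 (Trim21), and on the plus strand at chr11:88999389-88999418 (Trim25).
Trim12c: gttgtggTTTCTGTTTCATTTCCagctctc
Trim5: gttgtggTTTCTGTTTCATTTCCagagctc
Trim30a: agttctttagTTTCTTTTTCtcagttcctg
Trim30d: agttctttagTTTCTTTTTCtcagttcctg
Trim21: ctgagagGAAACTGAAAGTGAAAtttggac
Trim25: tcctgttcagTTTCGATTCCttcctcgctg

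Trim12c and Trim5 carried an ISRE core and an Ets-IRF composite that overlap in the same run of bases. The Trim30a and Trim30d stretches were identical. Over the 250 bases before the start, Trim30a and Trim30d shared 89% of aligned positions, and Trim12c and Trim5 shared 81.5%. The sources used here do not say how reads that match several such copies were placed, so peaks at these genes are uncertain in which copy they mark. Trim21 had 2 overlapping ISRE cores just inside its start, and Trim25 had an Ets-IRF composite across its start.

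Over the 300-base windows of the RefSeq table, which run from 250 bases before to 50 after a start, 32 of the 42 members had a window. An ISRE core was present in 7 of these 32 genes (21.9%: Trim12c, Trim2, Trim21, Trim26, Trim30a, Trim30d and Trim5), against 3.99% of all 27025 genes with a window. The Ets-IRF composite was present in 3 members (9.38%: Trim12c, Trim25 and Trim5), against 3.16% of all genes. A kappaB site was found in 2 members (6.25% against 5.48%), and the AP-1 site TGANTCA in 3 (9.38% against 8.97%). A gene counted if any of its windows held the motif. The ISRE core of Trim2 belongs to a start that lies 95514 bp inside the outer one. Shares among protein-coding genes alone were not computed for the motifs. Several of the genes with an ISRE core are copies of each other, so they are not independent. Matches describe the letters of these windows and are not shown to be sites of binding.

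Promoter calls at the members numbered 12, 16, 5 and 12 of 42, or 28.6%, 38.1%, 11.9% and 28.6%. The CpG 1 library was the lowest, and CpG 2 equalled control 1, so the conditions overlapped. Of all named genes, 24.1%, 28.6%, 10.4% and 22.2% had a Promoter call, so the members lay 4.47, 9.46, 1.47 and 6.35 percentage points higher. Named genes include many without a protein product, and among the 11332 protein-coding ones the shares were 33.1%, 38.8%, 14.1% and 30.5%. Against these, the members lay lower by a difference of -4.57, -0.698, -2.21 and -1.94 percentage points. The direction relative to the background thus depended on which background was used. The mean was 14 ± 2.83 members (SD, n = 2) in control and 8.5 ± 4.95 (SD, n = 2) with CpG, a difference of -5.5. Assigning the libraries to the conditions in all 6 ways, an exact permutation test (two-sided) gave p = 0.667, where the smallest p that it can give is 0.333.

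**Figure D1:**
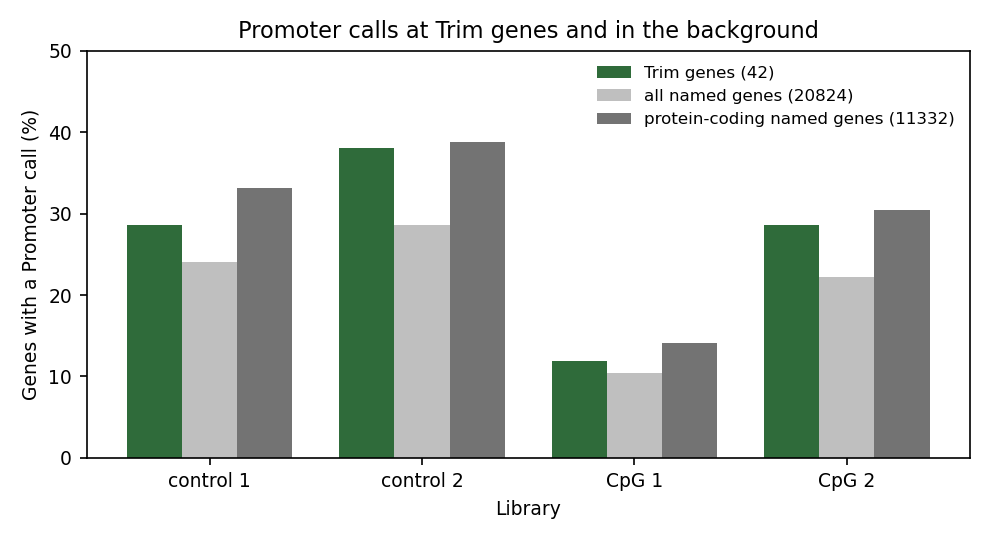
Share of genes with a Promoter call (percent, vertical axis) in each of the 4 libraries, for the 42 Trim genes, all 20824 named genes and the 11332 protein-coding named genes. In every library the Trim genes lie above all named genes and below the protein-coding ones, and CpG 1 is lowest in all 3 sets.

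A peak with its midpoint within 1 kb of the start was found at 20, 22, 7 and 14 of the 42 members, against 30.7%, 34.6%, 11.6% and 27.5% of all named genes. In percent the members stood at 47.6%, 52.4%, 16.7% and 33.3%. Against protein-coding genes they differed by 2.98, 2.99, 0.174 and -6.8 percentage points. Any nearest peak at all was found for 28, 33, 15 and 21 members, which is 66.7%, 78.6%, 35.7% and 50% of them. The shares of all named genes were 64%, 72%, 43.1% and 61.5%. The members were above this background in both control libraries, by 2.69 and 6.55 percentage points. They were below it in both CpG libraries, by a difference of -7.41 and -11.5 percentage points. Against protein-coding genes, as the members all are, the differences were -2.84, 1.72, -3.87 and -15.6 percentage points, so control 1 then lay below the background as well. Members and named genes were both chosen by having a nearest peak in at least 1 of the lists. The shares with any nearest peak reuse that property, so no conclusion is drawn from their pattern.

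The members were the nearest gene of 80, 90, 23 and 50 peaks, or 0.274%, 0.241%, 0.17% and 0.193% of each list. Both control libraries lay above both CpG libraries in this share, with means of 0.257% ± 0.023 and 0.182% ± 0.0168 (SD, n = 2 each) and a difference of -0.0759 percentage points. The exact permutation test gave p = 0.333, the smallest it can give with these 4 libraries. The members were chosen by such nearest peaks, so the test does not stand apart from that choice. Since both control libraries lay above both CpG libraries, leaving out any single library could not change this sign. In the authors' condition-wide lists the shares were 0.242% in control and 0.223% with CpG, a smaller difference of -0.0194 percentage points. Of the 243 peaks, 105 (43.2%) lay nearest to 4 genes, namely Trim8 with 43, Trim25 with 24, Trim14 with 22 and Trim27 with 16. The strength of the peaks was ordinary within each list. Their median fold enrichment, the authors' ratio of a peak's pileup to its local background, was 5.92, 6.45, 5.11 and 6.23, against 5.69, 6.1, 5.11 and 6.14 over all peaks. Fold enrichments are the authors' own and are not compared between lists, so percentiles within a list are given beside them.

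Among the members, 20 had no Promoter call in any library, 10 had it in 1, 4 in 2, 5 in 3 and 3 in all 4. The 3 were Trim25, Trim30a and Trim30b, or 7.14% of members, against 5.51% of all named genes. Only Trim21 had a call with CpG in both libraries and none in either control library (2.38% against 0.61%). Only Trim46 had the opposite pattern, called in both control libraries alone (2.38% against 4.36%). These shares rest on 1 to 3 genes. Without CpG 1, 8 members were called in all remaining libraries, as Trim12c, Trim17, Trim23, Trim45 and Trim8 joined, and 3 were called with CpG only (Trim13, Trim21 and Trim37). The control-only count was 6 without control 1, 4 without control 2 and 6 without CpG 2. Shares of all named genes were not computed with a library left out, so these counts have no background beside them.

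**Figure D2:**
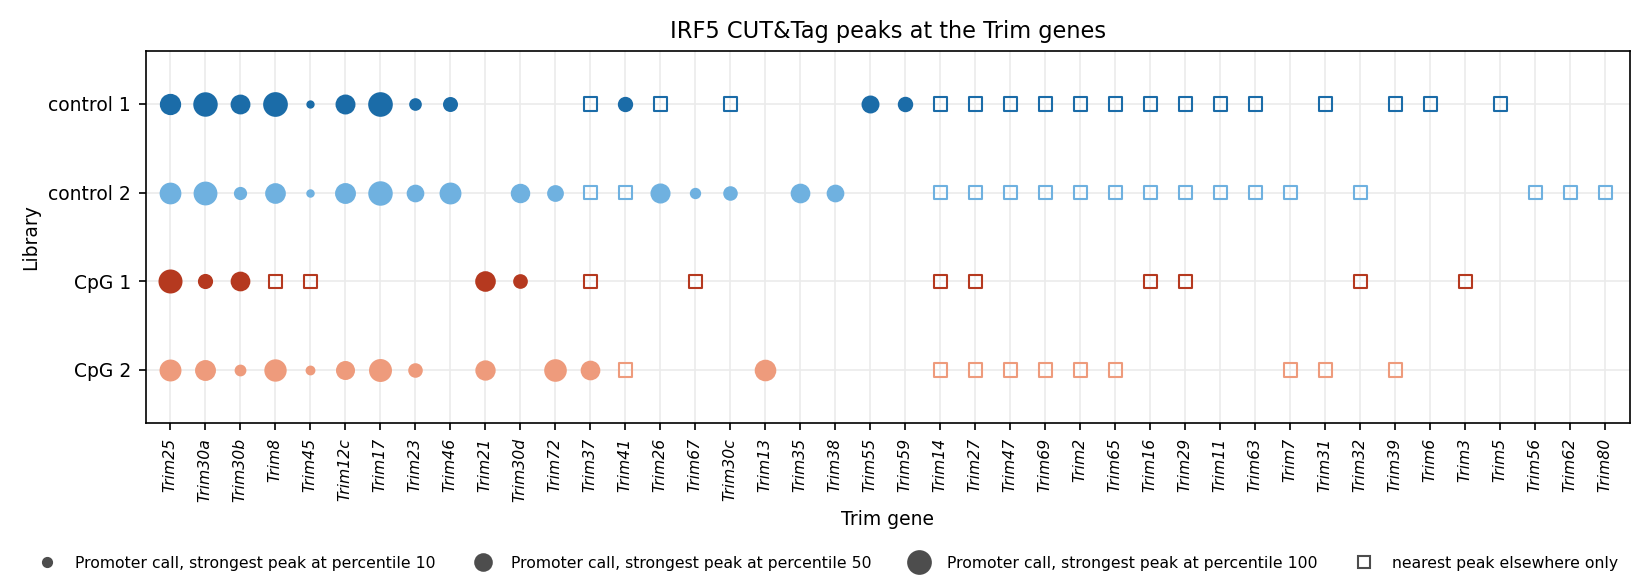
Each column is 1 of the 42 Trim genes and each row 1 of the 4 libraries. A filled circle is a Promoter call, its area growing with the percentile of fold enrichment of the strongest such peak within its list, and an open square is a nearest peak without a Promoter call. Trim25, Trim30a and Trim30b are filled in all 4 rows and Trim21 only in the 2 CpG rows.

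The members with a role in antiviral and innate sensing numbered 21. They had 6, 11, 5 and 8 Promoter calls, or 28.6%, 52.4%, 23.8% and 38.1%, against 33.1%, 38.8%, 14.1% and 30.5% of protein-coding genes and 24.1%, 28.6%, 10.4% and 22.2% of all named genes. Control 1 was thus below the protein-coding share and the other 3 libraries were above it. All 5 calls of CpG 1 fell in this group, which holds 21 of the 42 members. Of these calls, 3 were at Trim30a, Trim30b and Trim30d, neighbouring copies in the chromosome 7 cluster, and the others at Trim25 and Trim21. All 7 genes of that cluster are in this group, and they are not independent. Trim25 ubiquitinates the RNA sensor RIG-I and lies on the plus strand at 88890201 to 88911119 of chromosome 11 in the files. Its start-proximal peak had fold enrichments of 6.79, 7.95, 8.41 and 5.43, at percentiles 70.1, 73.7, 93.5 and 36.7. The summits lay at -93, -106, -106 and -127 bp from the start, so all 4 libraries marked the same place, within 34 bp. The peaks ran from -635 to 154 bp in control 1, -633 to 146 bp in control 2, -370 to 63 bp in CpG 1 and -242 to 53 bp in CpG 2. Each of them covered the Ets-IRF composite printed above, which lies at -4 to 5 bp. A second Promoter peak farther out was called in 3 of the 4 libraries, with summits at -1092 bp in control 1, -1837 bp in control 2 and -1923 bp in CpG 2, which the annotation shares with Gm11496.

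A further Trim25 region lay past the gene's end and was also called in all 4 libraries. Its fold enrichments were 8.36, 7.92, 5.11 and 13.2, at percentiles 84.7, 72.7, 50.1 and 92.7, and its pileups were 64, 75, 45 and 62. The summits lay at 24945, 25015, 25006 and 24951 bp. This intergenic peak had a higher pileup than the promoter peak in every library, where the promoter peak had 30, 36, 26 and 13.

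Trim30a lowers NF-kB signalling by degrading the adaptors TAB2 and TAB3, and lies on the minus strand of chromosome 7. Its promoter peak had fold enrichments of 14.1, 12.9, 4.34 and 7.28, at percentiles 97.6, 91.9, 28.5 and 66.9. The summits lay at -248, -240, -358 and -239 bp, with that of CpG 1 the farthest out. In every library the peak ended upstream of the ISRE core at -36 to -27 bp, its nearer edge lying at -108, -80, -301 and -59 bp. A second RefSeq start of the gene lies 19068 bp inside the first. Intronic peaks were called there in all 4 libraries with summits at 18851, 19047, 18858 and 18851 bp, which is -217 to -21 bp from that inner start. Their fold enrichments were 5.91, 8.09, 3.5 and 5.89, at percentiles 53.1, 74.2, 8.46 and 46.5. The 250 bases before the inner start (chr7:104446126-104446375, minus strand) shared 65.2% of aligned positions with those before the outer one, and are printed here because this window holds a called region in all 4 libraries.
Trim30a inner start: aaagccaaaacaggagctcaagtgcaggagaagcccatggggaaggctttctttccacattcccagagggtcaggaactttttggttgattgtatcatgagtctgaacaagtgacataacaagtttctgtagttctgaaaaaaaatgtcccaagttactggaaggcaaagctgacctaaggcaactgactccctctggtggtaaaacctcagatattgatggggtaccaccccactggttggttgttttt

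An ISRE core at 2 to 11 bp past that inner start was covered by the peak of control 2 alone. Trim30b, a neighbouring copy, had promoter peaks with fold enrichments of 6.05, 4.71, 5.34 and 4.27, at percentiles 58.7, 18.7, 57.9 and 12.4, with summits at -271, -460, -358 and -277 bp. These were close to or below the middle of each list. With only peaks of −log10 q of at least 5, Trim25 alone stayed in the group called in all 4 libraries. The CpG 1 peak of Trim30a had a −log10 q of 3.55 and the CpG 2 peak of Trim30b one of 4.5.

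These genes belong to a cluster on chromosome 7, where 7 members lie between 103867999 and 104157056 (289 kb): Trim6, Trim5, Trim12c, Trim30b, Trim30c, Trim30a and Trim30d. The 7 genes held 3, 5, 3 and 3 Promoter calls (42.9%, 71.4%, 42.9% and 42.9%), and the other 35 members held 9, 11, 2 and 9 (25.7%, 31.4%, 5.71% and 25.7%). Of protein-coding genes 33.1%, 38.8%, 14.1% and 30.5% had a call. The 7 genes are neighbours and partly copies of each other, so they are not independent. Trim12c, a mouse relative of the retroviral restriction factor TRIM5, had fold enrichments of 6.12 in control 1, 7.27 in control 2 and 6.26 in CpG 2, at percentiles 59.6, 66.7 and 52.7. It had no peak in CpG 1. The summits lay at -139, -208 and -55 bp, and all 3 peaks covered the overlapping ISRE and Ets-IRF motifs. Trim5, whose motif run is almost the same, had a single peak, in an intron and in control 1, with a fold enrichment of 4.52. Its gene length differs too much between the files and the table to place the motif against that peak. Trim30d was called in control 2 (fold enrichment 6.45, percentile 55.9, summit at -206 bp) and CpG 1 (4.32, percentile 26, summit at -416 bp), and neither peak covered its ISRE core. Trim30c had a Promoter call in control 2 alone, and Trim6 had intronic peaks in control 1 alone.

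Trim21, the intracellular antibody receptor that ubiquitinates antibody-bound virus, was the 1 member seen with CpG only. Its promoter peak had a fold enrichment of 5.62 in CpG 1 (percentile 64.6, pileup 12) and 6.89 in CpG 2 (percentile 62.3, pileup 12). Neither control library had any peak nearest to the gene. The IgG background differs with the treatment and depth is unknown, and the reason for this absence was not tested. The summits lay at -178 and -74 bp. The peaks ran from -241 to -70 bp and from -179 to -16 bp, and they ended upstream of the 2 ISRE cores that span 13 to 28 bp. With each list cut to the same number of peaks, the strongest by −log10 p, Trim21 was no longer called in both CpG libraries. The authors' condition-wide lists also gave Trim21 a Promoter call with CpG and not in control.

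Trim8, which promotes NF-kB signalling downstream of TNF and IL-1 receptors, had the most nearest peaks of all members in control 1, control 2 and CpG 2, with 12, 17, 2 and 12. In CpG 1 Trim30a, with 3, had the most. At least as many peaks as Trim8 were found for 0.687%, 0.293%, 12% and 0.307% of all named genes. Its promoter peak in control 1 had a pileup of 329 and a fold enrichment of 54.3, and 9 of the 29226 peaks of that library had a higher one. In control 2 the same stretch held 3 separate peaks with fold enrichments of 3.78, 7.09 and 5.52. In CpG 2 it again held 3, at 2.6, 3.16 and 8.65, and CpG 1 had none. The very high value was thus found in 1 control library and not in the other. The summit at -212 bp in control 1 nevertheless had counterparts at -218 bp in control 2 and -206 bp in CpG 2.

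The parts of Trim8 called in all 4 libraries lay in its introns. The first had summits at 2314, 2710, 2318 and 2710 bp, with pileups of 115, 149, 36 and 108 and fold enrichments of 11.3, 14.3, 5.11 and 13.8, at percentiles 94.6, 93.7, 50 and 93.5. The second had summits at 9661, 9663, 9746 and 9714 bp, with fold enrichments of 12.1, 12.6, 4.84 and 10.2, at percentiles 95.8, 91.4, 44.1 and 86. In both regions CpG 1 was the one library at or below the middle of its list. The upstream peaks nearest to Trim8 lay within introns and the 3′ untranslated region of Sufu, a neighbouring gene, so distance alone ties them to Trim8.

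Trim14, an adaptor of antiviral signalling at mitochondria, had no Promoter call in any library. Its 8, 7, 2 and 5 nearest peaks all lay upstream, mostly in introns of Coro2a, a gene for an actin-binding protein, and the 2 genes cannot be told apart here. In the region with summits from -18918 to -18658 bp the strongest peaks had fold enrichments of 6.03, 9.52, 3.67 and 12.4 and pileups of 51, 74, 43 and 89. In that with summits from -27845 to -27748 bp the fold enrichments were 9.58, 25.7, 3.25 and 8.71, where control 2 was at percentile 98.6 of its list and CpG 1 at 5.98. Trim27, which restrains the kinase TBK1 and with it type I interferon, also had no Promoter call. It had a peak in its 5′ untranslated region in all 4 libraries, with fold enrichments of 9.61, 10.6, 3.8 and 6.83 and summits at 640, 548, 646 and 510 bp. A broader upstream stretch was called in all 4 libraries as well. There CpG 2 had a peak of 3847 bp with a fold enrichment of 19.6 (percentile 97.5), and control 2 one of 4064 bp with 13.3 (percentile 92.5). Control 1 had 3 shorter peaks, the strongest at 8.54, and CpG 1 a peak of 252 bp at 3.56. A second upstream peak, with summits at -7076, -6660 and -6659 bp, reached 12.7, 13.7 and 24.5 in control 1, control 2 and CpG 2, at percentiles 96.5, 93 and 98.7, and was not called in CpG 1.

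**Figure D3:**
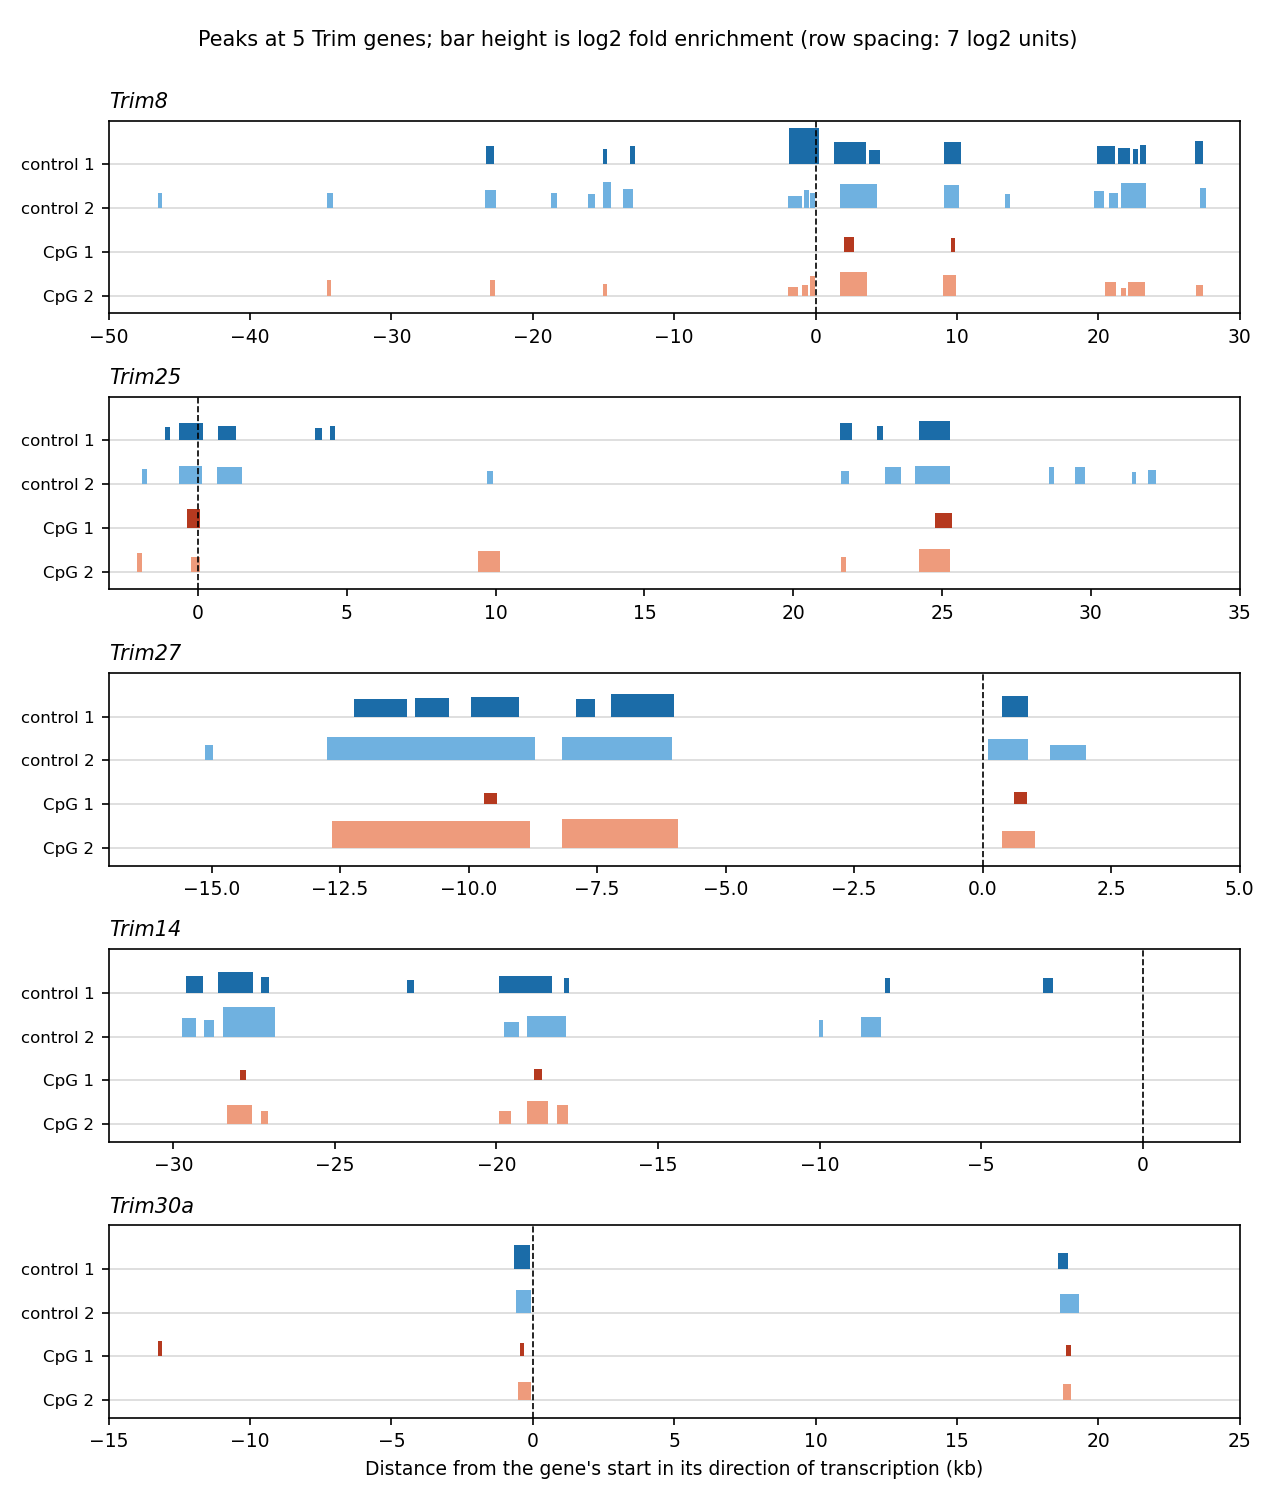
Peaks at Trim8, Trim25, Trim27, Trim14 and Trim30a in the 4 libraries, by distance from the gene's start in kb (horizontal axis, dashed line at the start, positive into the gene). Bar width is the extent of the peak, with a small minimum so that short peaks can be seen, and bar height its log2 fold enrichment. The peaks of CpG 1 fall within places that other libraries also mark, except for 1 peak upstream of Trim30a.

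The remaining sensing members showed calls in fewer libraries. Trim13, a ligase of the endoplasmic reticulum, had a Promoter call in CpG 2 alone (fold enrichment 7.85, percentile 72.4). Trim23, which activates TBK1, had calls in control 1, control 2 and CpG 2 (4.4, 5.86 and 4.92), from a peak that also lies in the promoter of Trappc13. Trim26, which ubiquitinates nuclear IRF3, was called in control 2 alone (6.78, percentile 60.4), and its 2 overlapping ISRE cores were covered in no library. An intronic peak just inside its start was found in control 1 (5.13, summit at 229 bp) and control 2 (4.4, summit at 214 bp). With CpG the gene had no nearest peak. Trim38, an inhibitor of TLR signalling, was called in control 2 alone (5.86, percentile 43.9). Trim35 also had Promoter calls in control 2 alone, with summits at -1930 bp (6.56, percentile 57.6) and -81 bp (5.03, percentile 26.7). CpG 2 had a peak in the same region as the latter (4.55, percentile 17.2). Its summit lay 3 bp inside Trim35, so it was not called Promoter for that gene. Trim65, which activates the RNA sensor MDA5, had no Promoter call but peaks just inside its start in control 1 (6.22), control 2 (13.3) and CpG 2 (4.07). Trim56, which acts on cGAS and STING, had 1 peak, in control 2, with its summit at -15202 bp. Trim32, which ubiquitinates STING, had a distant peak in control 2 (summit at -59215 bp) and another in CpG 1 (32580 bp). Trim34a was among the 27 Trim genes nearest to no peak, for which Promoter calls could not be read because they carry no name.

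None of the 4 chromatin cofactors of the family, Trim24, Trim28, Trim33 and Trim66, was nearest to a peak in any list. They bind modified histones or silence repeats together with zinc finger proteins. A peak names only its nearest gene, so Promoter calls from peaks nearest to other genes could not be read for these 4. The 3 striated muscle members had 1, 1, 0 and 1 Promoter calls, from Trim55 in control 1 (5.53) and Trim72 in control 2 (5.52) and CpG 2 (9.01). The 4 members of neurons and the cytoskeleton had 1, 2, 0 and 0. Trim67 gave 1 of these, in control 2 (4.2, percentile 10.6). Trim46, which bundles microtubules at the start of the axon, was called in both control libraries, with fold enrichments of 4.83 (percentile 27.6) and 8.12 (percentile 74.8). Its peak overlaps an exon or intron of Krtcap2, and the 2 genes cannot be told apart here. It was lost with a −log10 q of at least 5, since the peak of control 1 had 4.83.

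The 14 other members had 4, 2, 0 and 3 Promoter calls (28.6%, 14.3%, 0% and 21.4%), below the share of protein-coding genes in every library. Trim17 held the strongest promoter peaks of the family by their lowest percentile, with fold enrichments of 18.6, 21.7 and 9.68 in control 1, control 2 and CpG 2, at percentiles 99.2, 97.7 and 83.9. The summits lay at -28, -44 and -45 bp. The same peak lies in the promoter of the histone pseudogene H2bu1-ps, and the weaker Promoter peaks farther out are nearest to that pseudogene. CpG 1 had a peak in the same region (5.99, percentile 70.9) with its summit at 390 bp, inside Trim17, which the annotation puts in the promoter of H2bu1-ps and not of Trim17. Trim37, which ubiquitinates histone H2A, was marked at its start in all 4 libraries (4.67, 5.63, 4.4 and 6.55), with summits at 27, 203, 139 and -116 bp. Only that of CpG 2 fell upstream and was called Promoter. Trim45 had Promoter calls in 3 libraries at the bottom of their lists (2.87, 3.1 and 3.71, percentiles 0.819, 1.19 and 5.28), although their pileups were 48, 50 and 40. Trim11 had 7 of its 8 nearest peaks in control 1, within the gene, and none with CpG. Trim59 was called in control 1 alone (4.97), and Trim39 had intronic peaks in control 1 (3.45) and CpG 2 (6.49).

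The peaks of the members, merged across libraries where they overlapped by at least 1 bp, formed 124 regions. Of these 14 (11.3%) were called in all 4 libraries, against 10.1% of all 55621 regions. Regions called in every library but CpG 1 made up 15 (12.1%), against 12.2%. Regions found in both control libraries but with CpG in none made up 12 (9.68%), against 8.7%. The only region shared by the CpG libraries and missing from both control libraries was the Trim21 promoter (0.806%, against 1.15%). In 1 library alone lay 71 regions (57.3%, against 55.9%). Without CpG 1, 29 regions were called in all remaining libraries, a count for which the share of all regions was not computed. Wherever a share of all regions is given here, the Trim regions were near it. Of the 14 regions in all 4 libraries, Trim8, Trim14, Trim25, Trim27 and Trim30a held 2 each, and Trim17, Trim30b, Trim37 and Trim45 held 1 each.

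**Figure D4:**
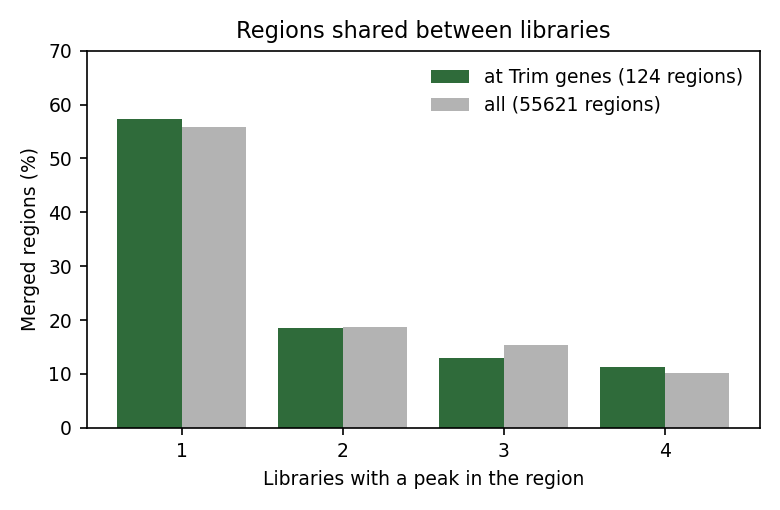
Percent of merged regions (vertical axis) by the number of libraries with a peak in them (horizontal axis), for the 124 regions at Trim genes and all 55621 regions. Both sets fall from over 55% in 1 library to about 11% and 10% in all 4.

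Genes of the same pathway were read from a list of partners. Of the TRIM proteins with other symbols, Mefv, which encodes the inflammasome sensor pyrin, had Promoter calls in control 1, control 2 and CpG 2 (5.97, 7.94 and 6.02), and Pml had none. Of 8 E2 enzymes, which pass ubiquitin to ligases, 7 were named and 3, 3, 0 and 4 had a Promoter call (42.9%, 42.9%, 0% and 57.1%, against 33.1%, 38.8%, 14.1% and 30.5% of protein-coding genes). Ube2n, which builds the chains used in signalling, was called in control 1, control 2 and CpG 2 (3.75, 8.35 and 5.97), as was its cofactor Ube2v1 (4.44, 5.85 and 3). The sensing and signalling list had 22 symbols, some of them older and newer names of the same gene, and 17 were named. These had 8, 7, 1 and 4 calls, which is 47.1%, 41.2%, 5.88% and 23.5% of the 17. This was above the share of protein-coding genes in both control libraries (33.1% and 38.8%) and below it in both CpG libraries (14.1% and 30.5%). Tbk1, the kinase that phosphorylates IRF3, was called in all 4 libraries (6.12, 11.3, 3.86 and 5.55, percentiles 59.6, 88.5, 14.1 and 38.1). Mavs, the adaptor of RIG-I, was called in both control libraries (8.19 and 5.43) and not with CpG, and Ifih1 and Sting1 had no call.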

How the data were processed

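The 6 deposited lists (4 libraries, 2 conditions) were made by the authors. The submitters' processing notes name MACS2 2.1.0, ChIPseeker, BWA 0.7.12 and fastp 0.20.0. Per the file headers, each peak has a pileup (signal at the summit), a fold enrichment (ratio to local background) and, in damaged columns read by position, the −log10 of its p-value and q-value. No count model could be fitted. Only the 21 assembled nuclear chromosomes were kept, and tables were computed with pandas 2.3.3 and scipy 1.17.1, and the steps were tested on simulated lists. The 4 IgG samples of the 8 were not analysed here. Members and lists were chosen with earlier results of these data known. Named were members called in all 4 libraries or in 1 condition only, fixed genes, the member with the most peaks per library, and the 5 members with the highest lowest percentile of promoter peaks. Alternatives were a −log10 q of at least 5, equal list lengths, 1 kb or any nearest peak, protein-coding genes as background, condition-wide lists, a replicate block and each library left out. The region counts, and the condition-wide lists for the share of peaks, were added after seeing the data.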

Additional observations from a re-analysis of the deposited data

How the results depend on the processing

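With an equal number of peaks per library, the strongest by −log10 p, the difference in members with a Promoter call turned to 1 (exact permutation p = 1). With protein-coding genes as background, the difference in the members' excess over the background turned from -3.06 (p = 0.667 by the exact permutation test) to 0.565 percentage points. Members called with CpG only numbered 0 with equal lists and 3 in the condition-wide lists (Trim13, Trim21 and Trim41), and 1 to 3 with each library left out, 3 of them without CpG 1. In the lists of single libraries, however, Trim41 had a Promoter call in control 1 alone (fold enrichment 4.93). Members called in control only numbered 0 with a −log10 q of at least 5, 0 with equal lists, 4 within 1 kb, 5 with any nearest peak, and 6 in the condition-wide lists. With each library left out they numbered 1 to 6, with 6 without control 1, 4 without control 2 and 6 without CpG 2. Members called in all 4 libraries numbered 1 with the stricter threshold, 5 within 1 kb and 8 with any nearest peak, and 3 to 8 with each library left out, with 8 without CpG 1. Regions in all 4 numbered 7 with the stricter threshold, 9 with equal lists and 14 to 29 with each library left out, 29 without CpG 1. The matching shares of all named genes and all regions were not computed for these counts under the alternatives. With replicate numbers as a block, the pairing gave the same differences of -5.5 members and -0.0759 percentage points (exact sign-flip p = 0.5, the smallest possible). The labels state no pairing. The difference in the share of peaks was -0.11 percentage points with the stricter threshold and -0.0885 with equal lists. With each library left out it ran from -0.0922 to -0.0596 percentage points. Its sign could not change there, since both control libraries lay above both CpG libraries. In the condition-wide lists, an alternative chosen after seeing the data, it was -0.0194 percentage points. Depth is unknown, and 2 libraries per condition limit every comparison. The cause of these shifts was not tested.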
